A study of Homo sapiens with 8 samples.

Results

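Regulators of apoptosis, with the death ligand TRAIL (gene TNFSF10) among them, were followed across 8 Affymetrix HG-Focus arrays of human breast cancer cells. The group is a fixed list of 37 gene symbols, and its members on the array are the probe sets annotated with exactly 1 of these symbols. This rule found 35 members with 1 probe set each, out of 8746 probe sets that are not controls and 7713 genes named by them, while RIPK1 and BIRC3 were not analysed here. ZR75-1 cells, labelled estrogen receptor positive, and SKBR3 cells, labelled estrogen receptor negative, were transfected with a plasmid carrying HSD17B14 or received the same vector lacking that insert, and RNA was taken 48 h later. All groups shared a medium with 4% serum and an interval of 24 h between seeding and transfection. HSD17B14 encodes an enzyme that oxidises estradiol and related steroids at carbon 17. Each of the 4 groups (ZR75-1 or SKBR3, with HSD17B14 or with vector) holds 2 arrays, so all cells compared had been through transfection and no untransfected cells enter. Nothing in the labels says that the duplicate arrays of a group came from different cultures, and the p-values below therefore reflect array-to-array spread, which may be technical.

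Apoptosis is entered by 2 routes. In the extrinsic route a ligand such as TRAIL, FAS ligand or TNF clusters a death receptor on the cell surface, the adaptors FADD or TRADD are recruited, and the initiator caspases CASP8 and CASP10 are activated unless CFLAR blocks them. In the intrinsic route BH3-only proteins such as PMAIP1 (NOXA) and BIK overcome the protective BCL2, BCL2L1 and MCL1, BAX and BAK1 open the outer membrane of mitochondria, and released cytochrome c (CYCS) assembles with APAF1 and CASP9. Inhibitor of apoptosis proteins such as XIAP and BIRC2 (cIAP1) restrain caspases or receptor signalling, and DIABLO (SMAC) and XAF1 act against them. TNFSF10 and XAF1 are also textbook targets of interferon.

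The values are signals on a linear scale, scaled within each array, with precision set by the small number of arrays. The 40th percentile of an array's signals ran from 12.1 to 17.6, and 17.6 is used below as a common floor under which a signal is not ranked. The signal of HSD17B14 was 107.5 and 135.3 in ZR75-1 with the plasmid against 17.8 and 2.1 with vector, and 650.7 and 743.6 against 2 and 4.2 in SKBR3-labelled cells. The cells labelled SKBR3 did not show the high ERBB2 signal for which that line is known: ERBB2 (HER2) ran from 25.9 to 46.8 there and from 95.9 to 226 in ZR75-1, and GRB7, a neighbour of ERBB2, lay under the floor on all 4 SKBR3-labelled arrays. STARD3, the other gene of that region on the array, ran from 27.5 to 36.4 there and from 24.8 to 30.3 in ZR75-1. Their VIM signal (vimentin, a mesenchymal filament) ran from 3646.2 to 5325.8 against 0.4 to 25.7 in ZR75-1, and their CDH1 signal (E-cadherin) from 26.8 to 58.1 against 1074.7 to 1508.4. These are single genes of their lists: of 5 tested mesenchymal markers, VIM was called lower in ZR75-1 but COL1A1 and TWIST1 higher. Both were weak signals. COL1A1 ran from 21.8 to 50.4 in ZR75-1 against 3.4 to 14.4, and TWIST1 from 14.1 to 28.2 against 0.3 to 3.6. Of 10 epithelial markers 8 were called higher in ZR75-1 on vector arrays and KRT7 lower. The cells are therefore called SKBR3-labelled, and the 2 calls in ZR75-1 are also given with ZR75-1 fitted alone. Of 7 leukocyte and 6 endothelial markers on the array, 0 lay above the floor on both arrays of any group. In such bulk RNA, fewer cells that express a gene and less of its RNA per cell cannot be told apart. The actin 3'/5' ratio, which rises as RNA degrades, was 2.83 and 2.66 in ZR75-1 with HSD17B14 against 2.03 and 2.02 with vector, and 2.28 and 3.09 against 3.60 and 2.996 in SKBR3-labelled cells, so the plasmid groups were apart in ZR75-1 and overlapped in SKBR3-labelled cells.

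Of the 35 members, 24 lay above the floor on all 8 arrays, 10 on some arrays and 1, CASP2, on none. CASP2, an initiator caspase with signals from 3.5 to 14.9, was the member left untested by the filter on low values, so 34 entered the tests. A call below means an adjusted p under 0.05 (limma, Benjamini-Hochberg over 6251 tested probe sets), differences are on the log2 scale, and each ± value is a standard error from limma (n = 2 arrays in a group unless said otherwise).

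**Figure D1:**
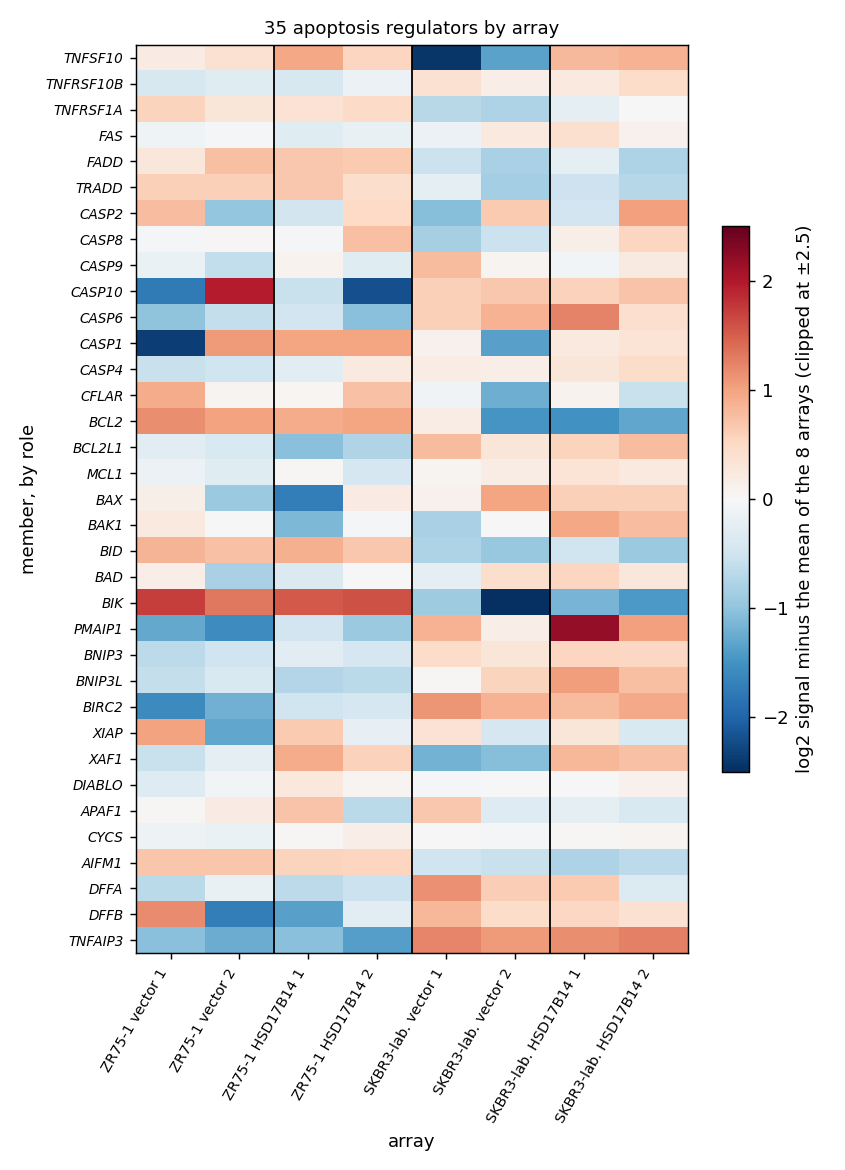
Signal of the 35 members on each of the 8 arrays, as log2 signal minus that member's mean over the 8 arrays (colour, limited to -2.5 and 2.5), with members in order of their role and arrays in order of line and plasmid. TNFSF10 stands low on the 2 SKBR3-labelled vector arrays alone, and BIRC2 and TNFAIP3 split the arrays by line.

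With the HSD17B14 plasmid, TNFSF10 and XAF1 rose in SKBR3-labelled cells, and XAF1 and BIRC2 rose in ZR75-1. In each line 2 of 34 members passed as higher and 0 as lower, where the background was 0.992% of tested probe sets in SKBR3-labelled cells (0.944% as higher, 0.048% as lower) and 1.52% in ZR75-1 (0.736% and 0.784%). Averaged over both lines, 2 members passed as higher and 0 as lower, against 1.5% of all tested probe sets in either direction, 1.22% as higher and 0.288% as lower. At an unadjusted p under 0.05 there were 7 members higher and 0 lower in SKBR3-labelled cells, beside 4.96% and 3.82% of all tested probe sets, and 3 higher and 1 lower in ZR75-1, beside 8.35% and 9.61%. The arrays of the plasmid groups did not overlap for 14 of the 34 members in either line, close to the 40.1% of all tested probe sets in SKBR3-labelled cells and under the 47% in ZR75-1. The median change of the members was 0.13 in SKBR3-labelled cells and 0.03 in ZR75-1, beside -0.01 and -0.04 for all tested probe sets. The sign of the change was the same in both lines for 21 of 34 members (61.8%), beside 51.8% of all tested probe sets.

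**Figure D2:**
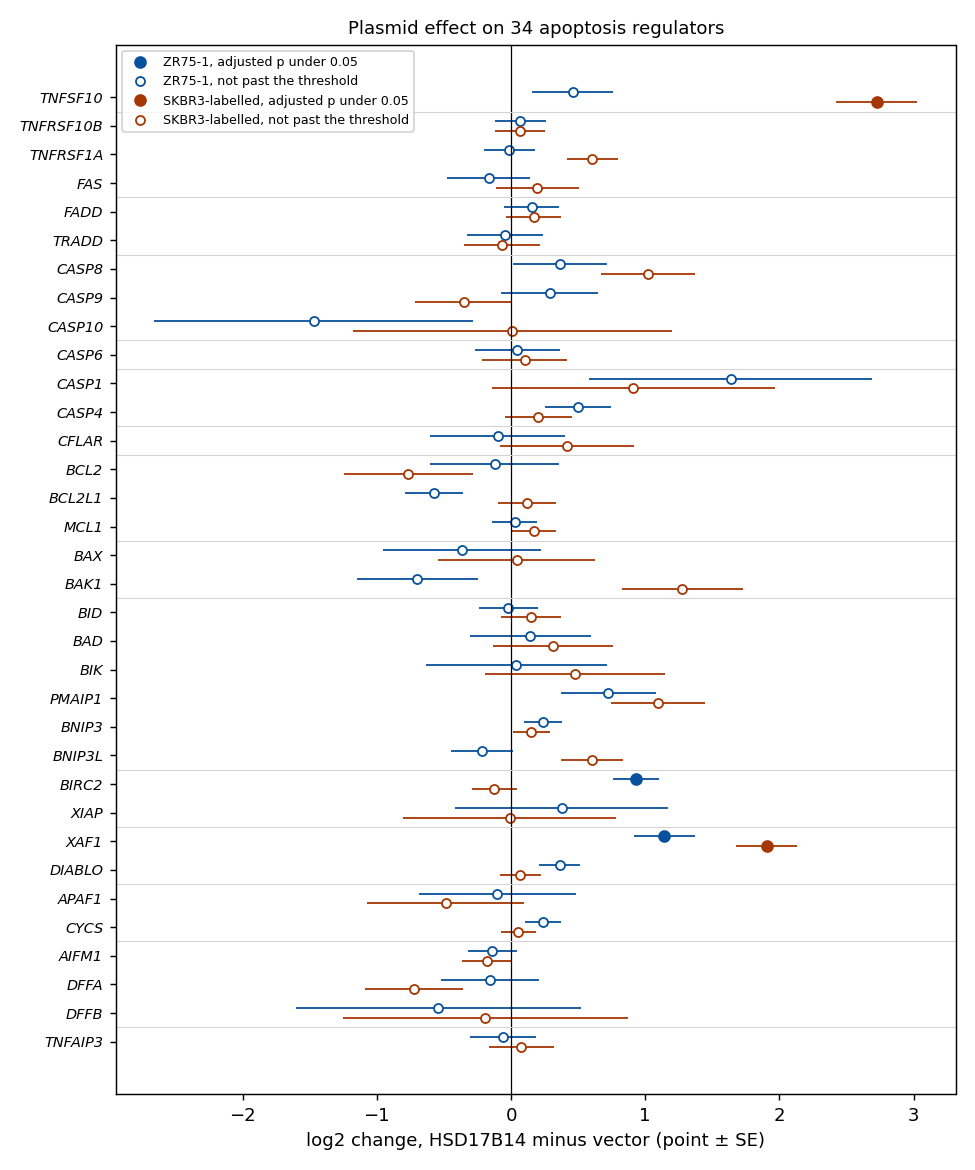
Change of each of the 34 tested members with the HSD17B14 plasmid against vector, in log2 units with limma's standard error as bars, for ZR75-1 and for SKBR3-labelled cells (n = 2 arrays per group). Filled points passed at an adjusted p under 0.05: XAF1 in both lines, TNFSF10 in SKBR3-labelled cells and BIRC2 in ZR75-1.

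TNFSF10 encodes TRAIL, a ligand that triggers apoptosis through the receptors TNFRSF10A and TNFRSF10B. Its signal in SKBR3-labelled cells was 222.7 and 231.7 with HSD17B14 and 23.6 and 49.9 with vector. In ZR75-1 it was 247.7 and 183.7 with HSD17B14 and 145.5 and 165 with vector. The SKBR3-labelled vector arrays were thus the low ones, and the other 6 arrays lay within 145.5 to 247.7. TNFSF10 rose by 2.73 ± 0.30 in SKBR3-labelled cells (6.62-fold, adjusted p = 0.000391, limma). In ZR75-1 the difference was 0.46 ± 0.30 (95% interval -0.20 to 1.12) and did not pass (adjusted p = 0.458), although the arrays did not overlap. The test of the difference between the lines gave -2.27 ± 0.43 (ZR75-1 minus SKBR3-labelled, adjusted p = 0.0434), and TNFSF10 was the 1 member past the threshold there, where 0.624% of all tested probe sets passed, 0.56% as lower.

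Leaving out single arrays changed whether the TNFSF10 difference between the lines passed, but not its sign. With each of the 8 arrays left out in turn, the rise in SKBR3-labelled cells passed every time, at 2.19 to 3.27 with adjusted p from 8.53e-05 to 0.00578 (limma). The difference between the lines passed only without SKBR3-labelled vector array 1 (-1.73, adjusted p = 0.0365) or vector array 2 (-2.81, adjusted p = 0.00261). It did not pass without any 1 of the other 6 arrays, although it stayed between -2.48 (without ZR75-1 HSD17B14 1) and -2.05 (without ZR75-1 HSD17B14 2). The difference between the lines also did not pass with the actin ratio as a covariate (-1.64, adjusted p = 0.996) or after quantile normalization (adjusted p = 0.101). With the actin ratio as a covariate the TNFSF10 rise in SKBR3-labelled cells was 2.47 ± 0.40 (adjusted p = 0.0173). Bacillus spike-in RNA was high on 3 arrays. The TNFSF10 change was 3.24 between the SKBR3-labelled arrays with low spike-in and 2.22 between those with high spike-in, each from 1 array against 1.

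XAF1 encodes a protein that binds XIAP and opposes its block on caspases. Its signal was 170.8 and 134 in ZR75-1 with HSD17B14 against 61.7 and 76 with vector. In SKBR3-labelled cells it was 161.1 and 149.6 with HSD17B14 against 39.7 and 43.2 with vector. All 4 plasmid arrays lay above all 4 vector arrays. XAF1 rose by 1.14 ± 0.23 in ZR75-1 (2.21-fold, adjusted p = 0.0324) and by 1.91 ± 0.23 in SKBR3-labelled cells (3.75-fold, adjusted p = 0.000676, both limma). With ZR75-1 fitted alone its adjusted p there was 0.0247. The XAF1 changes in the lines differed by -0.76 ± 0.32, which did not pass (adjusted p = 0.347), and their mean was 1.52 ± 0.16 (2.88-fold, adjusted p = 0.000419, n = 4 arrays per arm).

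The ZR75-1 call of XAF1 was less stable than that in SKBR3-labelled cells. It was lost in 6 of the 8 refits that left out 1 array, with adjusted p of 0.189 and 0.0719 without ZR75-1 HSD17B14 1 and 2, 0.1 and 0.0529 without ZR75-1 vector 1 and 2, and 0.0951 and 0.0939 without SKBR3-labelled HSD17B14 1 and 2 (limma). In SKBR3-labelled cells the XAF1 call held in all 8 refits, with adjusted p from 0.0013 to 0.0219. The ZR75-1 call of XAF1 was also lost with the actin ratio as a covariate (1.23, adjusted p = 0.477) and with a block for spike-in level (adjusted p = 0.0848). The change in XAF1 between ZR75-1 arrays of low spike-in, 1 with HSD17B14 and 2 with vector, was 1.32. This repeats the refit without ZR75-1 HSD17B14 2. In SKBR3-labelled cells the change within a spike-in level was 2.02 and 1.79, each from 1 array against 1.

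Interferon-stimulated genes moved in the same comparisons as TNFSF10 and XAF1. Of 33 tested genes on a list that leaves out the members, 27 rose in SKBR3-labelled cells and 7 in ZR75-1, with 0 lower in either line. The shares of all tested probe sets called as higher were 0.944% and 0.736%. The list was chosen with earlier results of these data known, so its counts are not an independent test. The median change of the 33 genes was 1.61 in SKBR3-labelled cells and 0.43 in ZR75-1. In the test of the difference between the lines, 13 of the 33 passed as lower and 0 as higher. The shares of all tested probe sets there were 0.56% and 0.064%. All 33 differences were below 0, with a median of -1.17, so TNFSF10 was not alone in this pattern. In ZR75-1, 25 of the 33 changes were above 0 and 8 below, MX1 and OAS3 among the latter. The rises called in ZR75-1 took in IFI27 at 1.33 (adjusted p = 0.00575), IFITM1 at 1.05 (adjusted p = 0.00614) and IFITM3 at 1.11 (adjusted p = 0.0109, all limma). There 26 of the 33 did not pass. Refits with the actin ratio, a spike-in block or single arrays left out are not given for the interferon-stimulated genes. The part of this response in the changes of TNFSF10 and XAF1 was not tested.

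TNFSF10, XAF1 and BIRC2 were the members called with the plasmid, so the sequence before their starts is shown. TNFSF10 and XAF1 were called together in SKBR3-labelled cells, and XAF1 and BIRC2 in ZR75-1. Each line gives the 250 bases before a RefSeq start of the gene in GRCh38.p14, 5' to 3' on the gene's strand: TNFSF10 at chr3:172523431-172523680 on the minus strand, XAF1 at chr17:6755796-6756045 on the plus strand, and BIRC2 at chr11:102346964-102347213 on the plus strand. Capitals mark a match to GAAA, any 2 bases, GAAA, the core of the interferon-stimulated response element, here in its reverse complement (TTTC, any 2 bases, TTTC).
TNFSF10: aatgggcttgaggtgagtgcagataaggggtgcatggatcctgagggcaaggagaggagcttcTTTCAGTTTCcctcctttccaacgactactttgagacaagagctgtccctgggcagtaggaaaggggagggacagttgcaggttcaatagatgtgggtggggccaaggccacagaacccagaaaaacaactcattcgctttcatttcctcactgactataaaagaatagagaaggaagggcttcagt
XAF1: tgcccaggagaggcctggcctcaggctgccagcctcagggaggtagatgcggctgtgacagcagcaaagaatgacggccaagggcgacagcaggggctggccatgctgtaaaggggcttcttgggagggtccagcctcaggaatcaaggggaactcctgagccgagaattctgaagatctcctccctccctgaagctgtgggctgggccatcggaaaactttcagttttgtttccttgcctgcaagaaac
BIRC2: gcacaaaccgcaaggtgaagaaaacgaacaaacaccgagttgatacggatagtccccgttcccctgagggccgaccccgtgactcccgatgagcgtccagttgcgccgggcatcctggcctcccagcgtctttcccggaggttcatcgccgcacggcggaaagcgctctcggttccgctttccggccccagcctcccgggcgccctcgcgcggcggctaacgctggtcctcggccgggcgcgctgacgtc
The TNFSF10 window holds TTTCAGTTTC from 187 to 178 bases before the start. XAF1 and BIRC2 have 2 windows each, of which 1 is printed, and no match to that core was found in either gene's windows.

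Promoter windows were found for 27 of the 35 members, 49 windows in all, and both strands were searched. The interferon-stimulated core was present in TNFSF10 alone among these 27 members. That is 1 of the 49 member windows (2.04%), beside 3.02% of 35116 windows of the same length. TTCNNNGAA, a gamma-activated sequence, matched 1 window of CASP8 alone (2.04% of member windows) and 6.57% of all windows. GGG, any 5 bases, CC, a loose NF-kB-like motif, matched 35 of the 49 member windows (71.4%), which belong to 20 genes, and 54.4% of all windows. Windows of a gene with several starts can share bases. Matches of different motifs did not overlap in these windows, matches of the NF-kB-like motif overlapped each other at some places, and a match describes letters in a window, not binding.

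BIRC2 encodes cIAP1, a ubiquitin ligase that holds TNF receptor signalling away from cell death. Its signal in ZR75-1 was 240.4 and 255.9 with HSD17B14 and 113.5 and 148.9 with vector. In SKBR3-labelled cells it was 587.7 and 658.6 with HSD17B14 and 738.3 and 623.2 with vector. The plasmid groups were apart in ZR75-1 and overlapped in SKBR3-labelled cells, where every array lay above every ZR75-1 array. BIRC2 rose by 0.93 ± 0.17 in ZR75-1 (1.91-fold, adjusted p = 0.0296, limma). The difference in SKBR3-labelled cells was -0.12 ± 0.17 (95% interval -0.49 to 0.24, adjusted p = 0.951). The test between the lines gave 1.06 ± 0.24 and did not pass (adjusted p = 0.088).

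The BIRC2 call had an adjusted p of 0.0232 with ZR75-1 fitted alone (limma). It was lost in 5 of the 8 refits that left out 1 array: without ZR75-1 HSD17B14 1 or 2 (adjusted p = 0.102 and 0.0931), ZR75-1 vector 1 (0.0838), or SKBR3-labelled HSD17B14 1 or 2 (0.0656 and 0.0661). The change stayed between 0.74 and 0.98 in these 5 refits. It was also lost with the actin ratio as a covariate (0.73, adjusted p = 0.534) and with a block for spike-in level (0.93, adjusted p = 0.0815). Between ZR75-1 arrays of low spike-in, 1 with HSD17B14 and 2 with vector, the BIRC2 difference was 0.89. This repeats the refit without ZR75-1 HSD17B14 2. Against SKBR3-labelled cells BIRC2 was lower in ZR75-1 by -2.38 ± 0.17 on vector arrays (5.22-fold, adjusted p = 8.27e-07) and by -1.33 ± 0.17 on HSD17B14 arrays (adjusted p = 9.25e-05).

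The other members of this class were not called with the plasmid. XIAP, the caspase-binding inhibitor, had signals from 7 to 34.7 and lay under the floor on 4 of 8 arrays. DIABLO, released from mitochondria to displace these inhibitors, measured 333.6 and 291.8 in ZR75-1 with HSD17B14 against 222.5 and 264.3 with vector. Those arrays did not overlap, but the difference of 0.36 ± 0.15 did not pass (adjusted p = 0.243, limma). In SKBR3-labelled cells DIABLO stayed within 269.3 to 296.5.

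**Figure D3:**
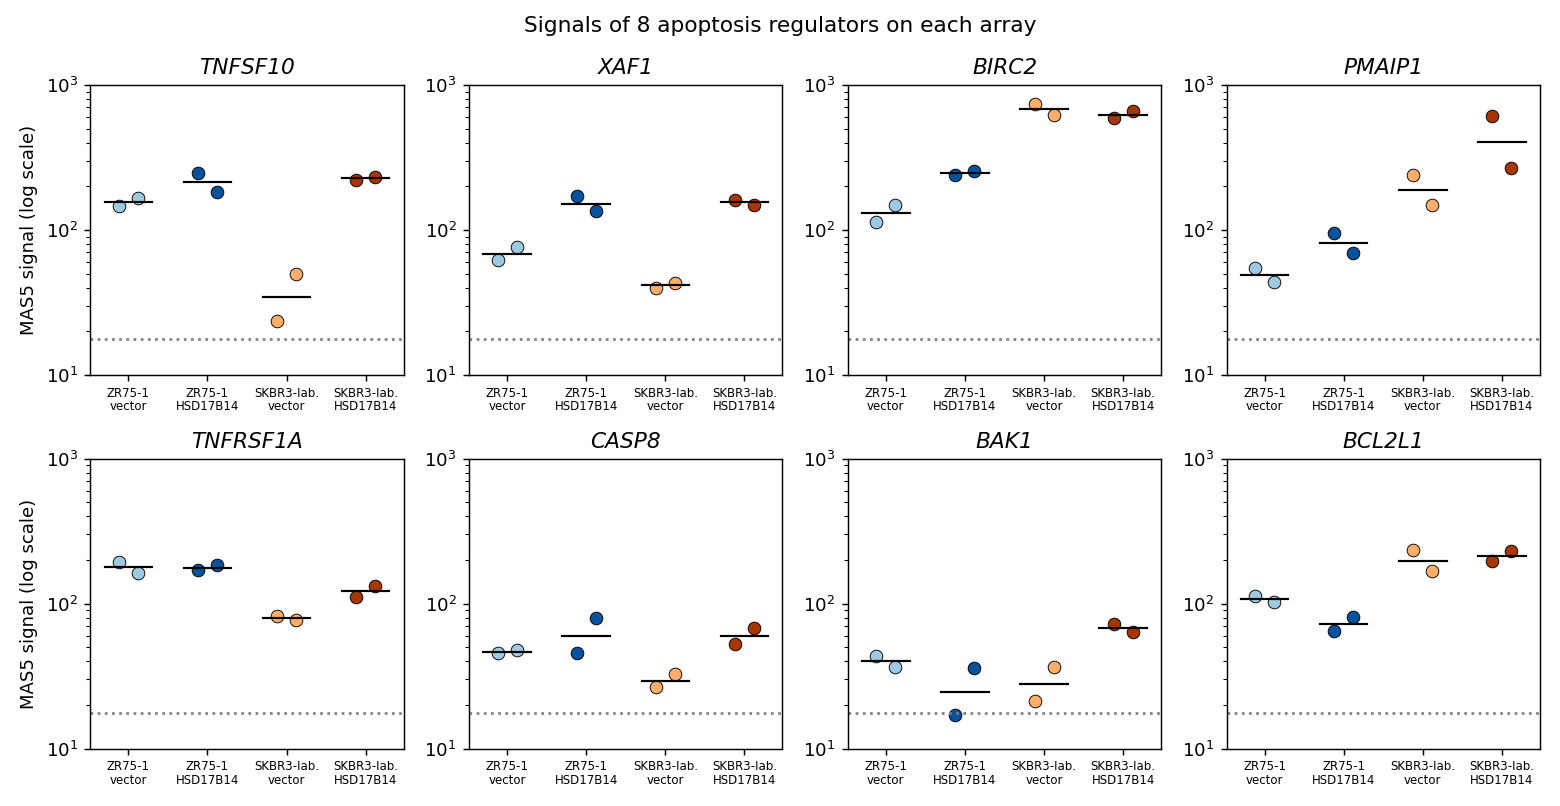
Signal of 8 members on each array (log scale), by line and plasmid: TNFSF10, XAF1, BIRC2, PMAIP1, TNFRSF1A, CASP8, BAK1 and BCL2L1. Points are arrays, bars are geometric means of the 2 arrays of a group, and the dotted line is the floor of 17.6; the 4 plasmid arrays of XAF1 sit between 134 and 170.8, above the 4 vector arrays at 39.7 to 76.

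Of the death receptors, none passed with the plasmid, and TNFRSF1A and TNFRSF10B differed between the lines in opposite directions. TNFRSF10B, a receptor for TRAIL, measured 104.2 and 123.5 in ZR75-1 with HSD17B14, 104.7 and 111.5 with vector, then 162 and 188.1 in SKBR3-labelled cells with HSD17B14 and 179.2 and 154.9 with vector. It was lower in ZR75-1 without overlap, by -0.62 ± 0.19 on vector arrays (adjusted p = 0.0198) and by -0.62 ± 0.19 on HSD17B14 arrays (adjusted p = 0.0237, both limma). TNFRSF1A, the main TNF receptor, measured 169.5 and 184.2 in ZR75-1 with HSD17B14, 194.4 and 163.3 with vector, 111.5 and 132.9 in SKBR3-labelled cells with HSD17B14 and 82.2 and 77.7 with vector.

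TNFRSF1A was thus higher in ZR75-1 on all arrays, by 1.16 ± 0.19 with vector (adjusted p = 0.000467) and by 0.54 ± 0.19 with HSD17B14 (adjusted p = 0.0473, limma). Within SKBR3-labelled cells the plasmid arrays of TNFRSF1A lay above the vector arrays, but the difference of 0.61 ± 0.19 did not pass (adjusted p = 0.292). FAS, the receptor for FAS ligand, ran from 39.4 to 63.5 with no call in any comparison. The adaptors FADD and TRADD, which link receptors to caspases, were both higher in ZR75-1.

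FADD measured 586.7 and 576.5 in ZR75-1 with HSD17B14, 445.7 and 612.5 with vector, 311.3 and 213.4 in SKBR3-labelled cells with HSD17B14 and 252.1 and 208.3 with vector. TRADD measured 100.8 and 84.7 in ZR75-1 with HSD17B14, 95.2 and 95.2 with vector, 44.1 and 38.4 in SKBR3-labelled cells with HSD17B14 and 53 and 35.1 with vector. Neither overlapped between the lines. The differences on vector arrays were 1.19 ± 0.21 for FADD (adjusted p = 0.000738) and 1.14 ± 0.28 for TRADD (adjusted p = 0.00724), and on HSD17B14 arrays 1.17 ± 0.21 (adjusted p = 0.000984) and 1.17 ± 0.28 (adjusted p = 0.00779, all limma). With the plasmid, adaptors differed by -0.07 to 0.17, and none passed.

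No caspase passed with the plasmid in either line. CASP8, the initiator at death receptors, measured 52.3 and 68.3 with HSD17B14 and 26.6 and 32.6 with vector in SKBR3-labelled cells, and 45.7 and 79.3 against 45.6 and 47.9 in ZR75-1. The SKBR3-labelled groups of CASP8 were apart, yet the difference of 1.02 ± 0.35 did not pass (adjusted p = 0.399, limma), and the ZR75-1 groups overlapped. CASP9, the initiator at the apoptosome, ran from 30 to 80. CASP10, the other receptor caspase, lay under the floor on 7 of 8 arrays, and CFLAR, the decoy that blocks CASP8, ran from 15 to 65.9.

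CASP6, an effector caspase that cleaves lamins, measured 57.5 and 39.2 in ZR75-1 with HSD17B14, 39.8 and 53.2 with vector, 190.6 and 107.8 in SKBR3-labelled cells with HSD17B14 and 121 and 147.1 with vector. It was lower in ZR75-1 without overlap, by -1.54 ± 0.32 on vector arrays (adjusted p = 0.0023) and by -1.59 ± 0.32 on HSD17B14 arrays (adjusted p = 0.00223, limma). CASP4, an inflammatory caspase that senses bacterial lipopolysaccharide inside cells, measured 63.7 and 91.9 in ZR75-1 with HSD17B14, 53.1 and 55.3 with vector, 95.9 and 107.1 in SKBR3-labelled cells with HSD17B14 and 88.5 and 87.5 with vector. CASP4 was lower in ZR75-1 on vector arrays by -0.70 ± 0.25 (adjusted p = 0.0416), a call lost in 6 of 8 refits with 1 array left out (adjusted p from 0.0758 without SKBR3-labelled HSD17B14 1 to 0.104 without ZR75-1 vector 1). CASP1, which processes interleukin-1 beta, lay above the floor on 3 of 8 arrays, all from ZR75-1.

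The protective BCL2 proteins split between the lines. BCL2 measured 77.2 and 80.5 in ZR75-1 with HSD17B14, 90 and 81.5 with vector, 14.2 and 16.3 in SKBR3-labelled cells with HSD17B14 and 46.1 and 14.5 with vector. It was higher in ZR75-1 by 1.73 ± 0.48 on vector arrays (adjusted p = 0.0131, limma). On HSD17B14 arrays, where both SKBR3-labelled arrays lay under the floor, it was at least 4.48-fold higher. The test there used the signals as measured, not this bound (adjusted p = 0.00249, limma). The BCL2 value on vector arrays moved to 0.89 without SKBR3-labelled vector 2 (adjusted p = 0.0713), and the call was also lost without ZR75-1 vector 1 (adjusted p = 0.064). Without SKBR3-labelled vector 1 the array left in that group, at 14.5, lay under the floor. BCL2L1 (BCL-XL) measured 64.8 and 80.4 in ZR75-1 with HSD17B14, 112.5 and 102.7 with vector, 198 and 231.1 in SKBR3-labelled cells with HSD17B14 and 232.9 and 166.9 with vector.

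BCL2L1 was thus lower in ZR75-1, by -0.88 ± 0.21 on vector arrays (adjusted p = 0.00657) and by -1.57 ± 0.21 on HSD17B14 arrays (adjusted p = 0.000161, limma). Its plasmid arrays in ZR75-1 lay under its vector arrays, but the difference of -0.57 ± 0.21 did not pass (adjusted p = 0.188). MCL1, a short-lived protector, measured 421.2 and 308.4 in ZR75-1 with HSD17B14, 372.1 and 336.7 with vector, 524.3 and 492.2 in SKBR3-labelled cells with HSD17B14 and 433.6 and 471.4 with vector. MCL1 was lower in ZR75-1 by -0.50 ± 0.17 on HSD17B14 arrays (adjusted p = 0.0379), a call lost without ZR75-1 HSD17B14 2 (-0.27, adjusted p = 0.294) or without SKBR3-labelled HSD17B14 1 or 2 (adjusted p = 0.197 and 0.117).

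Neither pore-forming protein passed with the plasmid. BAK1 measured 72 and 63.6 in SKBR3-labelled cells with HSD17B14 and 21.2 and 36.8 with vector, and 17 and 36 in ZR75-1 with HSD17B14 against 43.8 and 36.8 with vector. The plasmid arrays lay above the vector arrays in SKBR3-labelled cells and under them in ZR75-1. The BAK1 differences were 1.28 ± 0.45 (adjusted p = 0.412) and -0.70 ± 0.45 (adjusted p = 0.449), and the test between the lines, -1.98 ± 0.64, did not pass (adjusted p = 0.239, all limma). On HSD17B14 arrays BAK1 was lower in ZR75-1 by -1.45 ± 0.45 (adjusted p = 0.0269), a call lost without ZR75-1 HSD17B14 1 (-0.91, adjusted p = 0.192) or without SKBR3-labelled HSD17B14 1 or 2 (adjusted p = 0.161 and 0.107). BAX ran from 13.4 to 88.2 with overlapping groups in both plasmid comparisons.

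Among BH3-only proteins, BID and BIK were higher and PMAIP1 lower in ZR75-1. BID, the substrate of CASP8 that joins the extrinsic to the intrinsic route, measured 185.2 and 158.5 in ZR75-1 with HSD17B14, 181.1 and 166.6 with vector, 70.8 and 52.6 in SKBR3-labelled cells with HSD17B14 and 58.5 and 51.8 with vector. It was higher in ZR75-1 without overlap, by 1.66 ± 0.22 on vector arrays (adjusted p = 0.000111) and by 1.49 ± 0.22 on HSD17B14 arrays (adjusted p = 0.000307, limma). BIK measured 51.2 and 53.7 in ZR75-1 with HSD17B14 and 58.6 and 44.4 with vector, while all 4 SKBR3-labelled arrays lay under the floor at 2.8 to 9.6. BIK was therefore at least 2.90-fold higher in ZR75-1 on vector arrays and at least 2.98-fold higher on HSD17B14 arrays. The tests used the signals as measured, not these bounds (adjusted p = 0.00215 and 0.00636, limma).

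PMAIP1 (NOXA), which neutralises MCL1, measured 606.5 and 267.6 in SKBR3-labelled cells with HSD17B14 and 239.1 and 148.5 with vector. In ZR75-1 it measured 94.8 and 68.8 with HSD17B14 and 54.3 and 44 with vector. The plasmid arrays lay above the vector arrays in both lines, with SKBR3-labelled HSD17B14 1 far above the rest. The PMAIP1 differences were 1.10 ± 0.35 in SKBR3-labelled cells (adjusted p = 0.328) and 0.72 ± 0.35 in ZR75-1 (adjusted p = 0.311), and the average of 0.91 ± 0.25 did not pass (adjusted p = 0.116, all limma). The SKBR3-labelled difference was 1.69 and passed without SKBR3-labelled HSD17B14 2 (adjusted p = 0.0492), and was 0.51 without SKBR3-labelled HSD17B14 1. It also passed with a block for spike-in level (adjusted p = 0.0437). PMAIP1 was lower in ZR75-1 by -1.95 ± 0.35 on vector arrays (adjusted p = 0.001) and by -2.32 ± 0.35 on HSD17B14 arrays (adjusted p = 0.000357), the latter -1.73 without SKBR3-labelled HSD17B14 1 and -2.91 without SKBR3-labelled HSD17B14 2.

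BNIP3 and BNIP3L, mitochondrial proteins induced by low oxygen that also mark mitochondria for removal, were both lower in ZR75-1. BNIP3 measured 411.6 and 370.5 in ZR75-1 with HSD17B14, 313.3 and 349.7 with vector, 720.3 and 708.2 in SKBR3-labelled cells with HSD17B14 and 681 and 608.5 with vector. BNIP3L measured 66.6 and 69.8 in ZR75-1 with HSD17B14, 73.2 and 85.5 with vector, 228.5 and 186.4 in SKBR3-labelled cells with HSD17B14 and 112.7 and 164 with vector. Neither overlapped between the lines. BNIP3 was lower by -0.96 ± 0.14 on vector arrays (adjusted p = 0.000198) and by -0.87 ± 0.14 on HSD17B14 arrays (adjusted p = 0.000496, limma). BNIP3L was lower by -0.78 ± 0.23 on vector arrays (adjusted p = 0.0177) and by -1.60 ± 0.23 on HSD17B14 arrays (adjusted p = 0.000231). The BNIP3L difference with the plasmid in SKBR3-labelled cells was 0.60 ± 0.23, with arrays apart, and did not pass (adjusted p = 0.467). BAD, which binds BCL2L1, ran from 19.5 to 49.7 with no call.

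Downstream, CYCS and APAF1, the parts of the apoptosome, were not called in any comparison. CYCS ran from 1414.1 to 1769.7 and APAF1 from 14.9 to 39. AIFM1, a mitochondrial flavoprotein that can move to the nucleus during cell death, measured 167.6 and 164.9 in ZR75-1 with HSD17B14, 183.7 and 182.7 with vector, 66.7 and 72.4 in SKBR3-labelled cells with HSD17B14 and 80.4 and 77.1 with vector. It was higher in ZR75-1 by 1.22 ± 0.18 on vector arrays (adjusted p = 0.000272) and by 1.26 ± 0.18 on HSD17B14 arrays (adjusted p = 0.000262, limma), and its groups did not overlap. DFFA, the inhibitor and chaperone of the DNA-cutting nuclease DFFB, measured 36.8 and 39.8 in ZR75-1 with HSD17B14, 36.1 and 50.5 with vector, 90.4 and 45.4 in SKBR3-labelled cells with HSD17B14 and 127.2 and 88.2 with vector. DFFA was lower in ZR75-1 on vector arrays by -1.31 ± 0.37 (adjusted p = 0.0135), a call lost without ZR75-1 vector 1 (adjusted p = 0.0828) or SKBR3-labelled vector 1 (adjusted p = 0.0983). DFFB lay under the floor on 7 of 8 arrays.

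TNFAIP3 encodes A20, a ubiquitin-editing enzyme that NF-kB induces and that dampens TNF receptor signalling. It measured 35.4 and 28.2 in ZR75-1 with HSD17B14, 35.2 and 30.8 with vector, 163.9 and 173.4 in SKBR3-labelled cells with HSD17B14 and 168.9 and 151.3 with vector. The lines were far apart and the plasmid groups were not. TNFAIP3 was lower in ZR75-1 by -2.28 ± 0.24 on vector arrays (4.85-fold, adjusted p = 1.97e-05) and by -2.42 ± 0.24 on HSD17B14 arrays (adjusted p = 1.77e-05, limma).

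Between the lines, 9 of 34 members were higher and 10 lower in ZR75-1 on vector arrays. The background on vector arrays was 40.2% of tested probe sets called in either direction, 19.6% as higher and 20.7% as lower. On HSD17B14 arrays 7 members were higher and 10 lower, where the background was 33.2% in either direction, 15.1% as higher and 18.1% as lower. The lines did not overlap for 25 of 34 members in each case, beside 66.2% of all tested probe sets on vector arrays and 70.7% on HSD17B14 arrays. The median difference of the members was -0.15 on vector arrays and -0.29 on HSD17B14 arrays, beside -0.04 and -0.06 for all. Both comparisons use separate arrays but share the spread estimated from all 8 arrays, so their calls are not independent. In both, 15 members were called with the same sign. This is 78.9% of the 19 called on vector arrays and 88.2% of the 17 called on HSD17B14 arrays. Of all tested probe sets, 1648 were called in both whatever the sign, which is 65.5% and 79.5% of the calls. Of these, 1645 had the same sign.

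**Figure D4:**
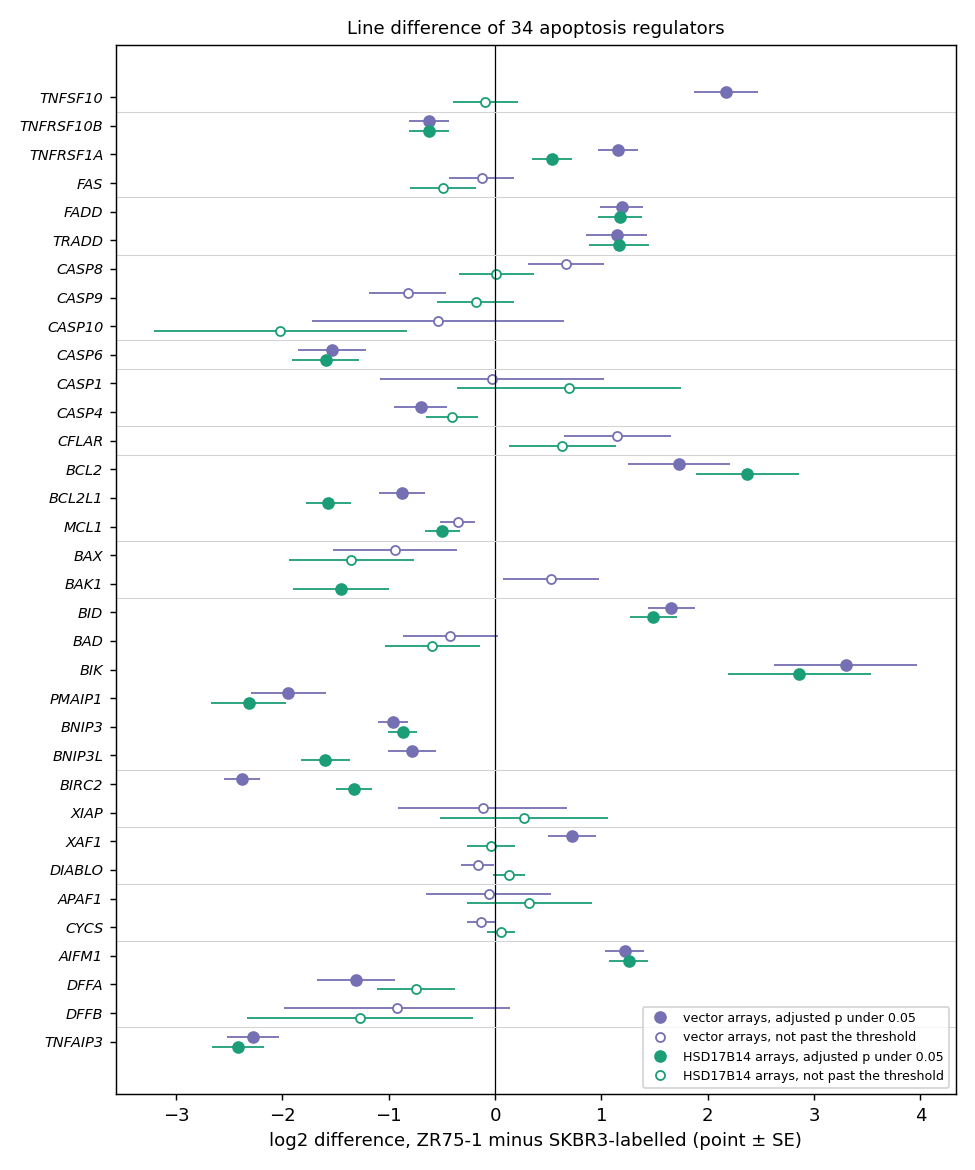
Difference between the lines (ZR75-1 minus SKBR3-labelled, log2) of each of the 34 tested members, on vector arrays and on HSD17B14 arrays, with limma's standard error as bars (n = 2 arrays per group). Filled points passed at an adjusted p under 0.05; TNFSF10 lies at 2.17 on vector arrays and at -0.09 on HSD17B14 arrays, and TNFAIP3 near -2.3 and -2.4 on both.

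TNFSF10, XAF1, CASP4 and DFFA were called between the lines on vector arrays alone, and MCL1 and BAK1 on HSD17B14 arrays alone. TNFSF10 was higher in ZR75-1 by 2.17 ± 0.30 on vector arrays (4.52-fold, adjusted p = 0.000147) and differed by -0.09 on HSD17B14 arrays (95% interval -0.75 to 0.57, adjusted p = 0.86, limma). XAF1 was higher by 0.73 ± 0.23 on vector arrays (adjusted p = 0.0242) and differed by -0.04 on HSD17B14 arrays (95% interval -0.53 to 0.46, adjusted p = 0.927). The change in these line differences is the test between the plasmid effects given above, which passed for TNFSF10 and not for XAF1. The XAF1 call on vector arrays was lost without ZR75-1 vector 2 (adjusted p = 0.115), SKBR3-labelled vector 1 (0.0671) or either SKBR3-labelled HSD17B14 array (0.0532 and 0.0521).

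With single arrays left out, 12 of the 19 calls on vector arrays and 12 of the 17 on HSD17B14 arrays held in all 8 refits. Besides the calls given above, those of TNFRSF10B were lost on vector arrays without ZR75-1 vector 1 or SKBR3-labelled vector 1 (adjusted p = 0.0735 and 0.0863), and on HSD17B14 arrays without ZR75-1 HSD17B14 1 or SKBR3-labelled HSD17B14 1 or 2 (0.149, 0.0678 and 0.206). BCL2L1 was lost on vector arrays without SKBR3-labelled vector 1 (0.0537), and BNIP3L without ZR75-1 vector 1 or SKBR3-labelled vector 2 (0.0878 and 0.127, with -0.51 in the latter). TRADD was lost on HSD17B14 arrays without ZR75-1 HSD17B14 1 or SKBR3-labelled HSD17B14 2 (0.0648 and 0.0662), and TNFRSF1A without any 1 of the 4 HSD17B14 arrays (0.0918 to 0.307). The actin ratio differed between the vector groups without overlap, and with it as a covariate 3 of the 19 calls remained: CASP6 (adjusted p = 0.0323), PMAIP1 (0.0488) and BIRC2 (0.00728, all limma). The other 16 kept their sign, 7 of them with a difference at least as large as before, and the standard errors of the 19 grew by 2.02 to 2.39 times. The difference of BNIP3, for instance, was then -0.85 ± 0.33, that of TNFAIP3 -2.00 ± 0.57, and that of BCL2L1 -0.36 ± 0.47. On HSD17B14 arrays, where the actin ratios of the lines overlapped, 15 of 17 calls remained.

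Other genes of the apoptosis pathways came from lists of 80 further receptors, ligands, caspases, BCL2 relatives, inhibitors and p53 targets. Of 42 tested, 0 rose and 1 fell with the plasmid in ZR75-1, beside 0.736% and 0.784% of all tested probe sets (limma). In SKBR3-labelled cells 0 passed in either direction, beside 0.992% of all tested probe sets. There 2 were higher and 2 lower at an unadjusted p under 0.05, beside 4.96% and 3.82% (limma). The gene that fell was LMNA, the nuclear lamin cleaved by CASP6. Its signals were 381.9 and 484.8 with HSD17B14 against 806.8 and 916.5 with vector, a change of -0.999 ± 0.16 (adjusted p = 0.0177, limma). Refits with the actin ratio, a spike-in block or single arrays left out are not given for LMNA. The median change over the 42 genes was -0.10 in ZR75-1 and 0.01 in SKBR3-labelled cells. Between the lines 9 of the 42 were higher and 9 lower in ZR75-1 on vector arrays, beside 19.6% and 20.7% of all tested probe sets. On HSD17B14 arrays 6 were higher and 8 lower, beside 15.1% and 18.1%.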

How the data were processed

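The authors deposited linear signal intensities of 8 arrays, computed with MAS5 according to the submitters' processing notes, which name no version. Before taking log2, values below 1 (2.41% to 7.13% per array) were set to 1. Probe sets above the array's own 40th percentile on at least 2 arrays were tested, which left 6251. limma 3.58.1 in R 4.3.3 fitted 4 group means (eBayes with a trend, 4 residual degrees of freedom, prior 7.39). Contrasts were the change with the plasmid in either line, its average, its difference between lines, and the line difference under each plasmid. A probe set can bind several transcripts of its gene. A fold against a group wholly under 17.6 is a lower bound. Per-array values are given for members called in any contrast and the 3 smallest p per plasmid contrast; CASP8 and DIABLO were added after their values were seen. Members, lists and settings were chosen with earlier results of these data known. The fit was tested on simulated data, and the outcome is not given here. Alternatives were other scalings, filters and priors, log2 of the value plus 32, the replicate number, spike-in level or actin ratio in the model, each line alone and each array left out. Promoters came from RefSeq (GRCh38.p14). Figures were drawn with matplotlib 3.10.9.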

Additional observations from a re-analysis of the deposited data

Results flagged for a closer look

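The change of TNFSF10 with the HSD17B14 plasmid differed between the lines by -2.27 on the log2 scale (ZR75-1 minus SKBR3-labelled, limma interaction test), which is why it is listed here. Of 33 tested interferon-stimulated genes, 13 also passed as lower in this test. The 2 SKBR3-labelled vector arrays were the low ones for TNFSF10. Its test passed in 2 of the 8 refits that left out 1 array. In the 6 that did not pass, the difference stayed between -2.48 and -2.05.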

How the results depend on the processing

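The number of arrays, 2 per group, limits precision, and a refit without 1 array assumes that the lone array of its group varies like the others. No member called in the main analysis changed direction in any alternative. The number of members called in ZR75-1 with the plasmid, 2, became 1 with median centring and 0 with values raised to the common floor, with a prior not dependent on the mean, with the actin ratio as a covariate or with a block for the spike-in level, and 0 to 2 with 1 array left out. The 2 calls in SKBR3-labelled cells became 0 with the prior not dependent on the mean (TNFSF10 adjusted p = 0.0816, XAF1 0.0602), 3 with the spike-in block, and 2 to 3 with 1 array left out. The 2 calls of the average became 1 with the common floor and 1 with that prior, 3 with log2 of the value plus 32 and 3 with the spike-in block, and 2 to 3 with 1 array left out. The 1 call of the difference between lines became 0 with quantile normalization, median centring, no filter, the common floor, that prior or the actin covariate, and 0 to 1 with 1 array left out. Between the lines, the 19 calls on vector arrays became 3 with the actin covariate and 14 to 19 with 1 array left out, and the 17 on HSD17B14 arrays 12 to 17. With the prior not dependent on the mean, the vector-array calls of TNFRSF10B, CASP4, BCL2, BNIP3L and DFFA were lost. Median centring lost those of CASP4 and XAF1. On HSD17B14 arrays both settings lost TNFRSF10B, TNFRSF1A, MCL1 and BAK1. Some of these calls were also lost under other scalings, filters or blocks. Median centring moved the median change of all probe sets in ZR75-1 from -0.04 to 0.16. The causes were not tested.

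Same-numbered arrays did not deviate together (correlations -0.04 to 0.06), but the number goes with spike-in level: all 4 arrays numbered 1 were low and 3 of 4 numbered 2 were high. With the replicate number as a block the calls were 2 in ZR75-1, 3 in SKBR3-labelled cells, 3 for the average, 1 for the difference, 19 on vector arrays and 16 on HSD17B14 arrays. PMAIP1 was the added member in SKBR3-labelled cells (adjusted p = 0.0454, limma).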
